A study of Homo sapiens with 17 samples.

Results

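Rapamycin binds FKBP12 and inhibits mTOR complex 1, the kinase complex that couples nutrients and growth factors to protein synthesis and cell growth. MS275 (entinostat) inhibits class I histone deacetylases and so raises histone acetylation. Described here are 9 genes of 19775 measured in L363, a human multiple myeloma cell line treated with one or both drugs: INHBE, C3AR1, EMP2, PTGS2, SH3YL1, DENND2C, RASGRP3, COMMD6 and COQ8A (also named ADCK3). They were chosen on their measured change with rapamycin, given alone or on top of MS275. All 9 were found among the array probe sets annotated to a single gene, and each gene was read from its probe set with the highest mean over the 17 arrays.

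The cells formed 6 groups, all collected at 48 hours. Controls received neither drug (3 arrays). Rapamycin was given at 1 nM (3 arrays) or 10 nM (3 arrays), MS275 at 0.5 uM (3 arrays), and MS275 at that dose together with 1 nM (3 arrays) or 10 nM rapamycin (2 arrays, after the submitters removed 1 array at quality control). The labels do not say whether replicates were separate cultures, so errors and p-values measure the spread between these arrays, which may be technical. All groups are 1 cell line, and the vehicle of the drugs is not named in the labels.

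The values are log2 signals of microarray probe sets, so a difference of 1 is a change in signal of 2-fold. Levels were compared between groups for 1 probe set, never between genes. A lower signal in such bulk RNA cannot tell fewer cells with the transcript from less RNA per cell. All 10 plasma cell markers were measured, and their mean log2 signal per array was 10.6 to 11.6. The mean of 8 T cell markers was 4.33 to 4.95, of 10 myeloid markers 4.07 to 4.63, of 8 epithelial markers 4.99 to 5.48 and of 6 of 7 red cell markers 4.34 to 5.12. The median signal was 5.35 and 5.36 on 2 arrays (replicate 1 of the controls and of the 1 nM combination) and 5.09 to 5.20 on the other 15. Those 2 arrays also had the narrowest spread of signals (SD 2.14 and 2.15 against 2.27 to 2.37), and their part in the results is given by refits without them.

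The 9 genes encode proteins of different kinds. INHBE encodes the inhibin beta E chain, a subunit of the secreted ligand activin E in the TGF-beta family, and its transcription is known to be induced by ATF4 and CHOP in the integrated stress response. C3AR1 encodes the receptor for complement fragment C3a, EMP2 a membrane protein with 4 spans related to PMP22, and PTGS2 cyclooxygenase 2, which makes prostaglandin H2 from arachidonic acid. SH3YL1 encodes a phosphoinositide-binding SH3 protein, DENND2C an exchange factor for Rab GTPases, RASGRP3 an exchange factor for Ras and Rap GTPases that responds to diacylglycerol, COMMD6 a subunit of the COMMD complexes of endosomal sorting, and COQ8A a mitochondrial protein needed for coenzyme Q synthesis. mTOR complex 1 is known to act upstream of ATF4 as well as of ribosomal protein translation.

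The genes fell into 3 patterns over the 6 groups. INHBE was lower wherever rapamycin was present. C3AR1, EMP2 and PTGS2 were high with MS275 and were near or below the control level once rapamycin was added to it. SH3YL1, DENND2C, RASGRP3, COMMD6 and COQ8A were higher with rapamycin than in controls. Because rapamycin contrasts chose the genes, the rapamycin changes below are descriptions with their errors and carry no test. The 3 contrasts for MS275 (against control, and added to 1 nM or 10 nM rapamycin) were tested with limma over all 19775 genes. They did not choose the genes, but they share arrays with the contrasts that did.

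**Figure D1:**
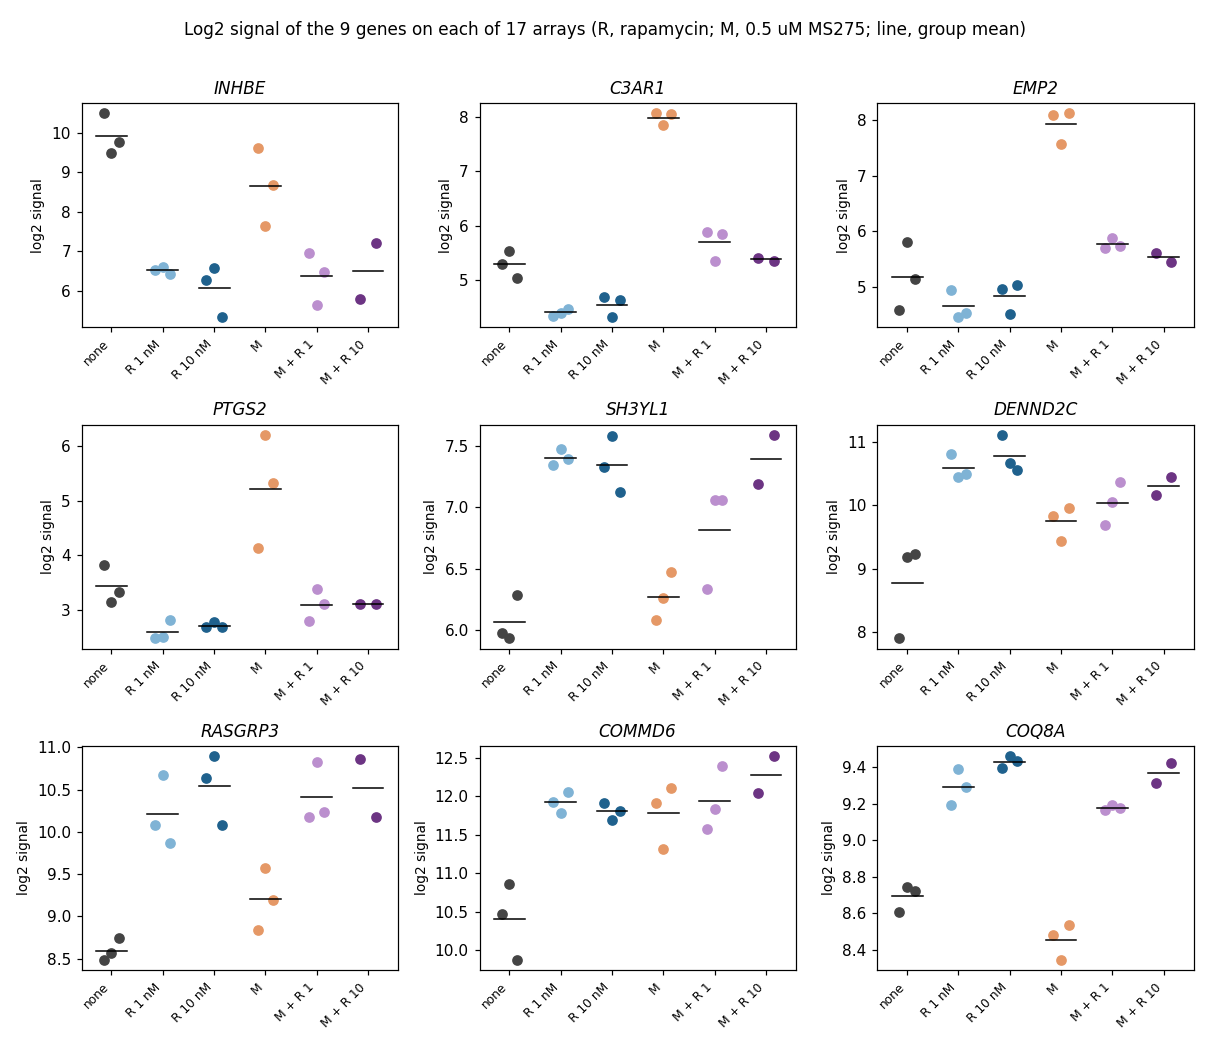
Log2 signal (vertical axes, own scale for each gene) of the 9 genes on every array of the 6 groups, with points for arrays and lines for group means. INHBE is low in the 4 groups with rapamycin, C3AR1, EMP2 and PTGS2 are highest in the group with MS275 alone, and the other 5 genes are lowest in controls or with MS275 alone.

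INHBE, the secreted ligand, gave the largest rapamycin change of the 9 genes. In controls its log2 signal was 10.48, 9.48 and 9.77. It was 6.52, 6.60 and 6.41 with 1 nM rapamycin and 6.26, 6.59 and 5.33 with 10 nM. No array with rapamycin alone came within 2 log2 units of any control array. The log2 change was -3.40 at 1 nM (SE 0.51, 95% interval -4.48 to -2.31), a signal 10.6-fold lower, and -3.85 at 10 nM (SE 0.51, interval -4.94 to -2.77), 14.4-fold lower.

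With MS275 alone INHBE varied more between arrays, at 9.60, 7.63 and 8.68, and overlapped the controls. It was 6.96, 5.64 and 6.48 with MS275 and 1 nM rapamycin and 5.79 and 7.21 with MS275 and 10 nM. All 5 of these arrays lay below all 3 arrays of MS275 alone, and they overlapped the arrays of rapamycin alone. Rapamycin added to MS275 thus went with a log2 change of -2.27 at 1 nM (SE 0.51) and -2.14 at 10 nM (SE 0.57). The change with MS275 alone was -1.28 (SE 0.51) and did not pass the test (limma adjusted p = 0.329, against 0.150 to 0.780 over 25 other settings of the analysis). MS275 added to 1 nM or 10 nM rapamycin gave -0.15 (SE 0.51, limma adjusted p = 0.900) and 0.44 (SE 0.57, limma adjusted p = 1.000). The order of the group means, from the lowest, was 10 nM rapamycin, the 1 nM combination, the 10 nM combination, 1 nM rapamycin, MS275 and control, and only the step from 1 nM rapamycin to MS275 separated neighbours with no overlap.

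The 3 genes whose signal was most like that of INHBE over the 17 arrays were SLC7A11 (r = 0.95), NINJ1 (r = 0.92) and ERMP1 (r = 0.91). SLC7A11, the cystine transporter subunit, is itself a known ATF4 target. Its log2 change was -2.47 at 1 nM and -2.49 at 10 nM rapamycin. These correlations are descriptions over arrays that share groups and replicate numbers. Of 18 measured genes of the integrated stress response, 0 passed limma's test in any of the 7 contrasts at an adjusted p under 0.05. Their median log2 change was -0.60 at 1 nM and -0.52 at 10 nM rapamycin, beside -0.12 and -0.07 over all genes, and -0.18 and -0.25 when rapamycin was added to MS275, beside 0.04 and -0.04. PCK2, the mitochondrial phosphoenolpyruvate carboxykinase, had the smallest adjusted p of the list at 1 nM, with a log2 change of -1.56 (SE 0.38, limma adjusted p = 0.150). At 10 nM it was PHGDH, the first enzyme of serine synthesis, with -2.00 (SE 0.49, limma adjusted p = 0.110). With the replicate number as a block, PHGDH passed at 1 nM (-1.91, limma adjusted p = 0.0480).

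Of 20 measured genes of the activin pathway besides INHBE, 1 passed the test with rapamycin. ACVR2B, a type II activin receptor, was higher at 10 nM by 1.01 (SE 0.18, limma adjusted p = 0.0341), a call that 9 of the 17 single-array omissions ended (adjusted p 0.0251 to 0.198 over them). The arrays whose omission ended it were control replicates 1 and 3, MS275 replicate 3 and the 6 arrays of rapamycin alone. With MS275 against control, 2 of the 20 rose and 0 fell. TGFBR3, the coreceptor betaglycan, rose by 2.46 (SE 0.43, limma adjusted p = 0.0105, 0.0610 without MS275 replicate 3), and ACVR1C, the type I receptor ALK7, by 1.08 (SE 0.22, limma adjusted p = 0.0253, up to 0.131 without control or MS275 replicates 2 or 3). ACVR1C also rose with MS275 added to 1 nM rapamycin, by 0.99 (SE 0.22, limma adjusted p = 0.0461), a call kept in 3 of 17 single-array omissions. With the replicate block, TGFBR3 (1.83, limma adjusted p = 0.0046), SMAD3 (1.13, 0.0304) and SMAD7 (1.30, 0.0210) passed there too, and the ligand gene INHBC fell by 2.26 (limma adjusted p = 0.0125). SMAD3 passed with MS275 alone under that block as well (1.10, limma adjusted p = 0.0327).

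C3AR1, EMP2 and PTGS2 moved in opposite directions with MS275 and with rapamycin added to it. MS275 alone raised all 3, and with rapamycin added the signal was lower by more than 2 log2 units at both doses. Without MS275 the means were also lower with rapamycin, but not all intervals excluded 0. They held 0 for EMP2 at 1 nM (-1.11 to 0.05) and 10 nM (-0.92 to 0.23), and for PTGS2 at 10 nM (-1.51 to 0.08). Of the 9 genes, 4 rose with MS275 against control and 0 fell, where 295 of all 19775 genes, 1.49%, passed in either direction. The fourth was COMMD6. Counts of the 9 in the MS275 contrasts are not independent of the choice, since the same arrays entered the contrasts that chose them.

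C3AR1, the complement receptor, was at 8.06, 7.84 and 8.05 with MS275 alone, against 5.31, 5.55 and 5.05 in controls. The lowest MS275 array was more than 2 log2 units above the highest control. The rise was 2.69 (SE 0.18, 95% interval 2.30 to 3.07, limma adjusted p = 9.08e-06), or 6.43-fold, seen in 3 of 3 arrays, and it passed under all 25 other settings. With MS275 and rapamycin together, C3AR1 was at 5.89, 5.35 and 5.86 (1 nM) and at 5.42 and 5.36 (10 nM). Both 10 nM combination arrays lay inside the range of the controls. Rapamycin alone gave 4.35, 4.41 and 4.48 at 1 nM and 4.70, 4.33 and 4.64 at 10 nM, below every control array.

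The log2 change of C3AR1 with rapamycin was therefore -0.89 (SE 0.18) at 1 nM and -0.74 (SE 0.18) at 10 nM without MS275, and -2.29 (SE 0.18) and -2.60 (SE 0.20) with it. MS275 still raised C3AR1 in the presence of 1 nM rapamycin, by 1.29 (SE 0.18, limma adjusted p = 0.0031), where 243 of all genes, 1.23%, passed and C3AR1 alone of the 9 did. Fitted on these 2 groups alone the adjusted p was 0.0781, the highest of 25 other settings, and it passed in the other 24. With 10 nM rapamycin MS275 gave 0.83 (SE 0.20, limma adjusted p = 0.107, 0.0459 to 0.484 over 25 settings), with no overlap between the arrays. C3AR1 is a gene of myeloid cells in blood. The mean of the 10 myeloid markers was 4.24 to 4.31 per array with MS275 alone and 4.10 to 4.61 in controls, and the group means of LYZ lay between 2.86 and 3.15. CSF1R, one of the 10, was at 5.70 with MS275 alone and 4.71 in controls, and its part in the C3AR1 change was not tested.

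EMP2, the membrane protein, followed C3AR1 closely (r = 0.97 over 17 arrays). Both were chosen on rapamycin contrasts of these arrays, so this r is only a description. The log2 signal of EMP2 was 8.09, 7.57 and 8.12 with MS275, against 4.58, 5.81 and 5.14 in controls. It was 5.69, 5.87 and 5.73 in the 1 nM combination and 5.60 and 5.45 in the 10 nM combination. MS275 alone stood apart from every other group, while both combinations overlapped the controls. The rise with MS275 was 2.75 (SE 0.27, interval 2.17 to 3.33, limma adjusted p = 0.000132), or 6.74-fold, and passed in 24 of 25 other settings, the exception being a fit on these 2 groups alone (limma adjusted p = 0.0834).

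Without MS275 the rapamycin change of EMP2 was small, -0.53 (SE 0.27) at 1 nM and -0.34 (SE 0.27) at 10 nM, with arrays at 4.95, 4.45, 4.53 and 4.95, 4.51, 5.02 that overlapped the controls. On top of MS275 it was -2.16 (SE 0.27) and -2.40 (SE 0.30). Every EMP2 value with rapamycin alone lay below the array medians (5.09 to 5.36). Whether low signal limited the change without MS275 was not tested. MS275 added to 1 nM rapamycin gave 1.12 (SE 0.27, limma adjusted p = 0.0617), which passed in 5 of 25 other settings, among them without control replicate 1 (0.0173) or 2 (0.0210), within a range of 0.0173 to 0.244. Added to 10 nM it gave 0.70 (SE 0.30, limma adjusted p = 0.598).

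PTGS2, cyclooxygenase 2, had low signals, with a mean of 3.38 over all arrays, and no detection calls were used here. It was at 4.13, 6.21 and 5.33 with MS275 and at 3.81, 3.15 and 3.33 in controls. The MS275 arrays spread over 2 log2 units, and the lowest stood just above the highest control. The rise was 1.79 (SE 0.37, interval 1.00 to 2.59, limma adjusted p = 0.0257), or 3.46-fold. The call was lost without control replicate 2 (limma adjusted p = 0.0753) or 3 (0.0903) or MS275 replicate 2 (0.0733) or 3 (0.115) and in a fit on these 2 groups alone (0.373), within 0.0013 to 0.373 over 24 other settings. Without MS275 replicate 2, the highest array, the rise was 1.30.

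The combination arrays of PTGS2 were at 2.80, 3.37 and 3.11 with 1 nM and at 3.11 and 3.10 with 10 nM rapamycin, inside the control range or below it. Rapamycin alone gave 2.48, 2.50 and 2.81 at 1 nM and 2.68, 2.77 and 2.68 at 10 nM, all below the lowest control. The log2 change on top of MS275 was -2.13 (SE 0.37) at 1 nM and -2.12 (SE 0.41) at 10 nM, beside -0.83 (SE 0.37) and -0.72 (SE 0.37) without it. MS275 added to rapamycin gave 0.50 (SE 0.37, limma adjusted p = 0.547) at 1 nM and 0.39 (SE 0.41, limma adjusted p = 1.000) at 10 nM. No gene of the 9 passed with MS275 added to 10 nM rapamycin, a contrast in which limma called 86 of 19775 genes, 0.435%, and 1452 genes had an unadjusted p under 0.05. Before adjustment, limma's p there was 0.0011 for C3AR1 and 0.0361 for EMP2.

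**Figure D2:**
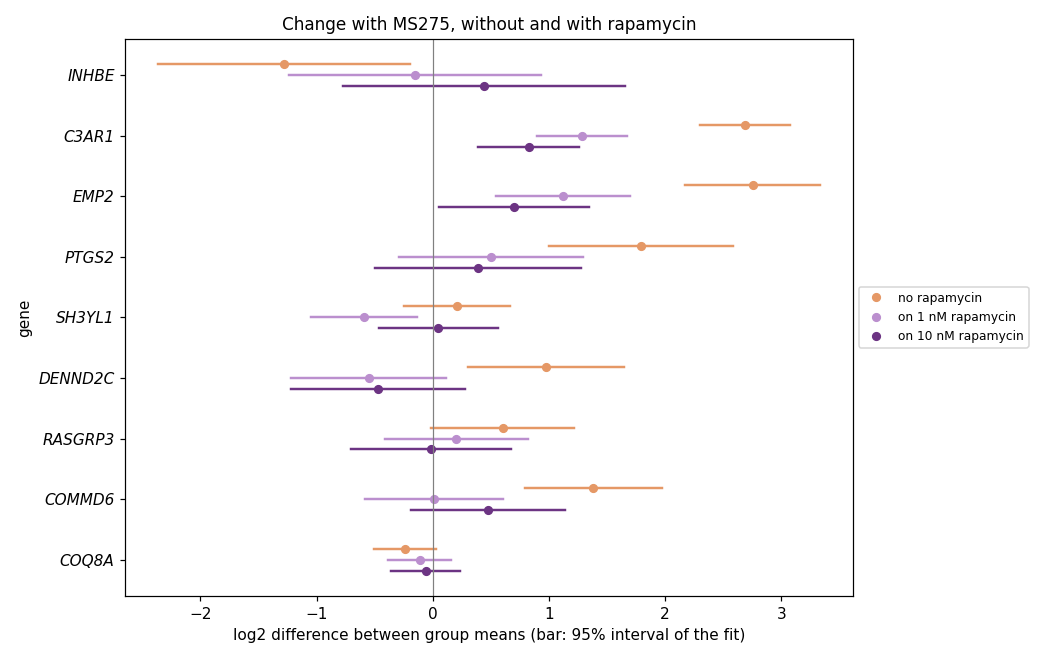
Log2 difference (horizontal axis) with MS275 for the 9 genes (vertical axis), without rapamycin and on 1 nM or 10 nM rapamycin, as points with 95% intervals of the fit. C3AR1 goes from 2.69 without rapamycin to 1.29 and 0.83 with it, EMP2 from 2.75 to 1.12 and 0.70, and PTGS2 from 1.79 to 0.50 and 0.39.

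The genes most like C3AR1 were DISP2 (r = 0.97), TMEM45A (r = 0.96) and ELOVL3 (r = 0.95), and the same 3 were most like EMP2 (TMEM45A 0.95, ELOVL3 0.95, DISP2 0.94). Their log2 changes with MS275 alone were 2.02 for DISP2, 1.88 for TMEM45A and 1.67 for ELOVL3. PTGS2 was most like MPZL3 (r = 0.91), CDC14B (r = 0.90) and CTSV (r = 0.88). Of 13 measured complement receptors and regulators, 0 passed limma's test in any of the 7 contrasts. C1QBP, GNAI2, CR2, CD55 and CFI had the smallest adjusted p in 1 or more of the contrasts, and the lowest of all was 0.323 for GNAI2, a G protein subunit through which the C3a receptor signals, with MS275 (-0.66, SE 0.26).

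Of 8 genes of the EMP and PMP22 family besides EMP2, 0 passed in any contrast. PERP came closest, at 2.64 with MS275 (SE 0.62, limma adjusted p = 0.0514). With the replicate block it passed with MS275 against control (2.64, limma adjusted p = 0.0030) and with MS275 added to 1 nM rapamycin (1.83, limma adjusted p = 0.0238). Of 20 prostanoid genes besides PTGS2, TBXAS1, thromboxane synthase, rose with MS275 by 1.39 (SE 0.24, limma adjusted p = 0.0102), a call kept in all 17 single-array omissions. It rose by 1.17 with MS275 on 1 nM rapamycin (SE 0.24, limma adjusted p = 0.0260), with the call lost on leaving out any 1 nM rapamycin array or 1 nM combination replicate 1 or 2 (0.0172 to 0.136). None of the 20 passed with rapamycin, where the smallest adjusted p was that of PTGDR, a prostaglandin D2 receptor, at 1 nM (-0.71, SE 0.23, limma adjusted p = 0.366).

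C3AR1, EMP2 and PTGS2 each have 1 start site in the RefSeq promoter table (GRCh38.p14), and since they moved together, the 250 bases before each start are shown, 5' to 3' on the strand of the gene. All 3 genes lie on the minus strand. Capitals mark every match, on either strand, to 7 short motifs. They are the TATA box, searched with the letters TATAAA, the CCAAT box, the GC box, searched as GGGCGG, the E-box, searched as CACGTG, and the cAMP response element core, searched as TGACG. The last 2 are the AP-1 site, searched as TGANTCA, and the C/EBP site, searched as TTNNGNAA, where N is any base. The CCAAT box was searched by its own letters.
C3AR1, chr12:8066360-8066609: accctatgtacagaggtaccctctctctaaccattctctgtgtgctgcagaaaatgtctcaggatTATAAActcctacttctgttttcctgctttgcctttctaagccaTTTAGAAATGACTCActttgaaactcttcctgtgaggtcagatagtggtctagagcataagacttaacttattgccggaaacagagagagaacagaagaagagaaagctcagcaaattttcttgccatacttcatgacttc
EMP2, chr16:10580599-10580848: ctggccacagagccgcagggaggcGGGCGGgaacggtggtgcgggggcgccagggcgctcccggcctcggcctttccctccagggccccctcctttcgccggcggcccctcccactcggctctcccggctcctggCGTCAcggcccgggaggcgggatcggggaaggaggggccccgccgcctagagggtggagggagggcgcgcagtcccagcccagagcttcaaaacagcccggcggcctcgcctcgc
PTGS2, chr1:186680424-186680673: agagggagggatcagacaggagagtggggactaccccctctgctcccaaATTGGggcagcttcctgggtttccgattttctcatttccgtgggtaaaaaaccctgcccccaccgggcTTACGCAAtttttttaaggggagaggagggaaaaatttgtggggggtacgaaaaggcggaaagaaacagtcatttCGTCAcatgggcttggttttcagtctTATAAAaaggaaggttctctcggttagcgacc

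The 3 windows differ in composition. GC content was 40.8% for C3AR1, 77.2% for EMP2 and 50.4% for PTGS2. No motif of the 7 was in all 3 windows. The C3AR1 window holds a TATA box match beginning 185 bases before the start, a C/EBP match at 141 and, directly after it, an AP-1 match at 133. The EMP2 window holds a GC box match at 226 and a cAMP response core on the other strand at 115. The PTGS2 window holds a TATA box match at 32, a cAMP response core at 58 on the other strand, a C/EBP match at 133 that reads as one on both strands, and a CCAAT box at 201 on the other strand. Of 35116 promoter windows of the same length, 10.7% hold the TATA box letters, 32.0% CCAAT, 42.6% the GC box, 6.34% the E-box, 21.2% the cAMP response core, 6.57% the AP-1 letters and 33.2% the C/EBP letters. Matches are descriptions of sequence and not binding sites. The table holds 8 of the 9 genes and not INHBE.

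The other 5 genes were higher with rapamycin alone than in controls, on all arrays at both doses. Rapamycin contrasts chose these genes, so nothing is read from that separation. The 5 genes differed in their rapamycin change on top of MS275. RASGRP3 and COQ8A were also higher when rapamycin was added to MS275, on every array. Rapamycin added to MS275 changed DENND2C and COMMD6 by 0.28 and 0.15 at 1 nM and by 0.56 and 0.50 at 10 nM. SH3YL1 lay between. A higher mean with MS275 alone than in controls did not separate them. DENND2C (0.97) and COMMD6 (1.38) had one, but so did RASGRP3 (0.60) and SH3YL1 (0.21).

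RASGRP3, the Ras and Rap exchange factor, was at 8.49, 8.56 and 8.74 in controls. It was at 10.08, 10.68 and 9.87 with 1 nM rapamycin and at 10.63, 10.90 and 10.08 with 10 nM. The log2 change was 1.61 (SE 0.29, 3.06-fold) and 1.94 (SE 0.29, 3.84-fold), with each rapamycin array more than 1 log2 unit above all controls. MS275 alone gave 8.83, 9.57 and 9.20, just above the controls, a change of 0.60 (SE 0.29) that did not pass (limma adjusted p = 0.476). The combinations were at 10.18, 10.83 and 10.23 (1 nM) and 10.87 and 10.17 (10 nM), in the range of rapamycin alone. Rapamycin added to MS275 therefore gave 1.21 (SE 0.29) and 1.32 (SE 0.32).

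COQ8A, the coenzyme Q protein, had the smallest change of the 5 with rapamycin alone. It was at 8.61, 8.75 and 8.72 in controls, at 9.20, 9.39 and 9.29 with 1 nM and at 9.39, 9.46 and 9.44 with 10 nM rapamycin. MS275 alone gave 8.48, 8.35 and 8.54, all below the controls, with a change of -0.24 (SE 0.13) that did not pass (limma adjusted p = 0.560). With MS275 present it was 9.17, 9.19 and 9.18 at 1 nM and 9.31 and 9.42 at 10 nM rapamycin. At both MS275 states every rapamycin array was above every array without it. The log2 changes were 0.60 (SE 0.13) and 0.74 (SE 0.13) without MS275 and 0.72 (SE 0.13) and 0.91 (SE 0.14) with it.

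SH3YL1, the SH3 protein, was at 5.97, 5.93 and 6.28 in controls. With 1 nM rapamycin it was 7.35, 7.48 and 7.40, with 10 nM 7.33, 7.59 and 7.13. The log2 changes, 1.35 (SE 0.21) and 1.29 (SE 0.21), were 2.55-fold and 2.45-fold. MS275 alone, at 6.08, 6.26 and 6.47, overlapped the controls (0.21, SE 0.21, limma adjusted p = 0.838). The 1 nM combination spread from 6.33 (replicate 1) to 7.06 and 7.06 and overlapped MS275 alone, while the 10 nM combination, at 7.20 and 7.60, did not. Rapamycin added to MS275 gave 0.55 (SE 0.21) at 1 nM and 1.13 (SE 0.24) at 10 nM. MS275 added to 1 nM rapamycin gave -0.59 (SE 0.21, limma adjusted p = 0.271), with no overlap, and added to 10 nM 0.05 (SE 0.24, limma adjusted p = 1.000).

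DENND2C, the Rab exchange factor, was at 7.90 on control replicate 1 and at 9.18 and 9.23 on the others. It was at 10.81, 10.44 and 10.49 with 1 nM and 11.11, 10.66 and 10.56 with 10 nM rapamycin, above every control. The log2 change was 1.81 (SE 0.31) at 1 nM, or 3.51-fold, and 2.0 (SE 0.31) at 10 nM, or 4.01-fold. Control replicate 1, one of the 2 arrays of narrow spread, is the lowest of the 17. Without that array the rapamycin changes were 1.38 at 1 nM and 1.57 at 10 nM. MS275 alone gave 9.84, 9.44 and 9.96, above the controls by 0.97 (SE 0.31, limma adjusted p = 0.175). That difference was 0.54 without control replicate 1, within 0.54 to 1.20 over single-array omissions. The combinations, at 9.68, 10.05 and 10.36 (1 nM) and 10.16 and 10.45 (10 nM), overlapped or lay above MS275 alone, and only 1 of the 5 reached the lowest array of rapamycin alone. Rapamycin added to MS275 gave 0.28 (SE 0.31) at 1 nM and 0.56 (SE 0.35) at 10 nM.

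COMMD6, the endosomal sorting subunit, was lowest in controls, at 10.47, 10.85 and 9.87. It was at 11.93, 11.79 and 12.06 with 1 nM and 11.91, 11.69 and 11.81 with 10 nM rapamycin. MS275 alone reached the same range, at 11.92, 11.32 and 12.11. The rise with MS275 was 1.38 (SE 0.28, interval 0.79 to 1.97, limma adjusted p = 0.0221), or 2.61-fold, beside 1.53 (SE 0.28) with 1 nM and 1.41 (SE 0.28) with 10 nM rapamycin. The MS275 call was lost without control replicate 3 (limma adjusted p = 0.0900), MS275 replicate 1 (0.0795) or 3 (0.119), and when both probe sets of the gene were averaged (0.83, limma adjusted p = 0.154) or the 2 groups were fitted alone (0.275), within 0.000625 to 0.275 over 25 settings. The combinations were at 11.58, 11.84 and 12.39 and at 12.04 and 12.52, overlapping MS275 alone at both doses. Rapamycin added to MS275 gave 0.15 (SE 0.28) and 0.50 (SE 0.31), and MS275 added to 1 nM rapamycin 0.01 (SE 0.28, limma adjusted p = 0.988). MS275 added to 10 nM rapamycin gave 0.48 (SE 0.31, limma adjusted p = 1.000), with both combination arrays above all 3 arrays of 10 nM rapamycin alone. The 3 genes most like COMMD6 were all ribosomal protein genes: RPS18 (r = 0.94), RPS10 (r = 0.92) and RPLP1 (r = 0.90). Their log2 changes were smaller, 0.29, 0.30 and 0.44 at 1 nM rapamycin.

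The genes most like the other 4 were NR1D2 (r = 0.92), ACVR2B (r = 0.90) and DCC (r = 0.88) for SH3YL1, and SEC24B-AS1 (r = 0.90), DDX6 (r = 0.90) and NBR1 (r = 0.89) for DENND2C. For RASGRP3 they were ALOX12-AS1 (r = 0.92), IQCH-AS1 (r = 0.90) and CREBRF (r = 0.90), and for COQ8A ACVR2B (r = 0.92), WDR45 (r = 0.87) and BRD3 (r = 0.85). ACVR2B, the activin receptor named above, was thus alike to both SH3YL1 and COQ8A. NBR1, a receptor of selective autophagy, had log2 changes of 1.44 at 1 nM and 1.46 at 10 nM rapamycin, and NR1D2, a circadian repressor, 1.75 and 1.61. Among the 5 genes the 10 pairwise correlations were 0.50 to 0.88, and each of the 5 correlated negatively with INHBE, at -0.92 to -0.66. These signs follow in part from choosing the genes on their rapamycin change, and nothing is read from them.

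Gene families of these 5 members held few calls. Of 17 measured genes of Ras exchange besides RASGRP3, RASA2, a GTPase-activating protein for Ras, rose with MS275 by 1.07 (SE 0.19, limma adjusted p = 0.0121, 0.0564 without MS275 replicate 2). It rose with MS275 added to 1 nM rapamycin by 1.02 (SE 0.19, limma adjusted p = 0.0157, kept in 13 of 17 single-array omissions) and to 10 nM by 1.13 (SE 0.21, limma adjusted p = 0.0335, kept in 11 of 17). With the replicate block RRAS passed with MS275 against control as well (1.46, limma adjusted p = 0.0177). None of the 17 passed with rapamycin, where SOS1 had the smallest adjusted p in all 4 contrasts, from 0.302 to 0.779.

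Of 16 measured genes of coenzyme Q synthesis besides COQ8A, HPDL, an enzyme of the ring precursor, fell with MS275 by 1.49 (SE 0.24, limma adjusted p = 0.0079), a call kept in all 17 single-array omissions. It fell by 1.16 with MS275 added to 1 nM rapamycin (SE 0.24, limma adjusted p = 0.0317, kept in 11 of 17) and fell by 1.58 with MS275 added to 10 nM (SE 0.27, limma adjusted p = 0.0216, kept in 13 of 17). PDSS1 passed with MS275 on 1 nM rapamycin under the replicate block (-1.28, limma adjusted p = 0.0493). The list's median with rapamycin was -0.39 to -0.21 over the 4 contrasts, below all genes in each, while COQ8A itself was higher. The 20 other DENN domain genes and 15 other genes of the COMMD complexes gave 0 calls in the 7 contrasts, with smallest adjusted p of 0.173 for DENND5B with MS275 (0.69, SE 0.22) and 0.230 for CCDC22 with MS275 added to 1 nM rapamycin (-0.94, SE 0.32).

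**Figure D3:**
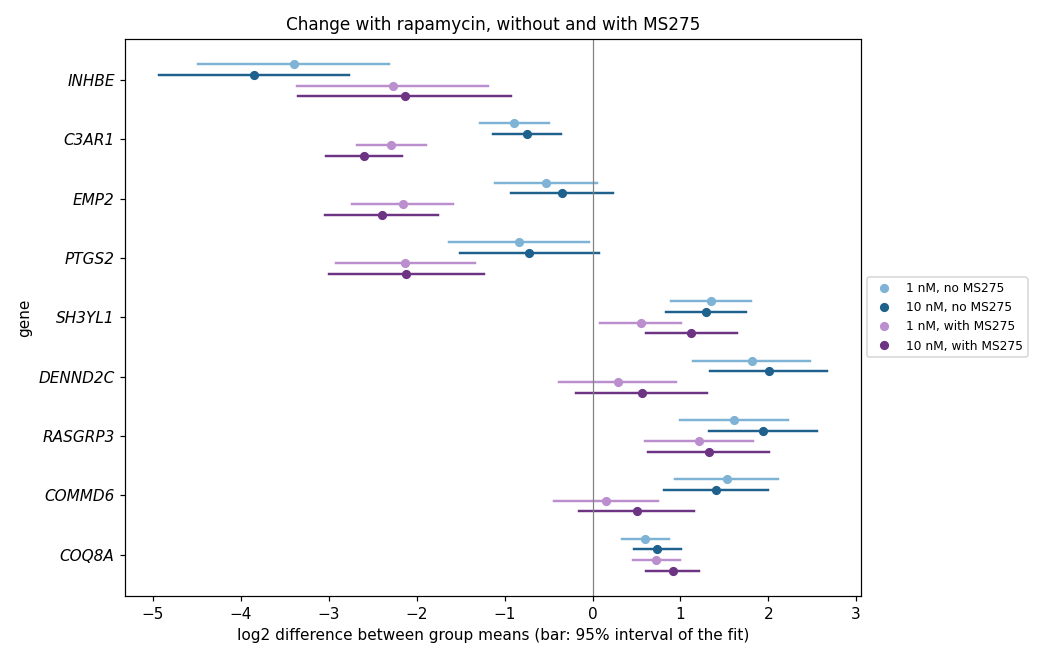
Log2 difference (horizontal axis) with 1 nM or 10 nM rapamycin for the 9 genes (vertical axis), without and with MS275, as points with 95% intervals of the fit. C3AR1, EMP2 and PTGS2 lie further below 0 with MS275 than without it, and DENND2C and COMMD6 lie nearer 0 with MS275. The doses of SH3YL1 with MS275, at 0.55 and 1.13, are the pair whose difference has an interval without 0.

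The rapamycin contrasts chose the 9 genes, so their counts past the threshold follow from that choice. They are given beside the share of all genes, and nothing is read from them. At 1 nM against control, 2 of the 9 were past the threshold upward (SH3YL1, DENND2C) and 1 downward (INHBE), where 20 of 19775 genes, 0.101%, were. At 10 nM it was 5 upward (SH3YL1, DENND2C, RASGRP3, COMMD6, COQ8A) and 1 downward (INHBE), beside 86 genes, 0.435%. For 1 nM added to MS275 it was COQ8A upward and C3AR1, EMP2 and PTGS2 downward, beside 21 genes, 0.106%. For 10 nM added to MS275 it was COQ8A upward and C3AR1 and EMP2 downward, beside 50 genes, 0.253%. These counts depend on single arrays. At 1 nM against control the count of 3 became 0 without control replicate 1 or 3 or any of the 3 rapamycin arrays, and 6 with the replicate number as a block. At 10 nM the count of 6 became 0 without 10 nM replicate 1, 2 without control replicate 3 and 3 without 10 nM replicate 2 or 3. Of the 17 single-array omissions, only 3 kept the DENND2C call at 1 nM and only 4 the COMMD6 call at 10 nM. The count of 4 at 1 nM added to MS275 became 2 in 15 of the 17 single-array omissions, all except control replicate 1 and MS275 replicate 1. The count of 3 at 10 nM added to MS275 became 1 without either array of the 10 nM combination.

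The doses were compared with and without MS275. Without MS275, the 10 nM mean differed from the 1 nM mean by -0.45 (INHBE) to 0.33 (RASGRP3), and all 9 of the 95% intervals held 0, with bounds from -1.54 to 0.94. Same-numbered arrays of these groups deviated together, and with the replicate number as a block all 9 intervals again held 0, with bounds from -1.52 to 0.90. In 6 of the 9 genes the difference had 1 sign in all 3 same-numbered pairs, higher at 10 nM for EMP2, DENND2C, RASGRP3 and COQ8A and lower for INHBE and COMMD6. Some of these differences were close to 0, as for EMP2 (0.0063, 0.061 and 0.49). The share of all genes with 1 sign in the 3 pairs was not computed, so nothing is read from this count. With MS275 the differences ran from -0.31 (C3AR1) to 0.58 (SH3YL1), and 8 of 9 intervals held 0. The exception was SH3YL1 (interval 0.07 to 1.09), whose 1 nM combination has 1 low array, replicate 1. Intervals of this width do not show that the doses act alike. COQ8A arrays did not overlap between doses in either setting, at 9.20 to 9.39 against 9.39 to 9.46 without MS275 and 9.17 to 9.19 against 9.31 to 9.42 with it, narrowly in the first, although both intervals held 0 (0.14, -0.13 to 0.41, and 0.19, -0.11 to 0.49).

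Dependence on MS275 was taken as the rapamycin change with MS275 minus that without it. It was -1.40 (interval -1.95 to -0.85) at 1 nM and -1.86 (-2.44 to -1.28) at 10 nM for C3AR1, and -1.63 (-2.45 to -0.81) and -2.05 (-2.92 to -1.19) for EMP2. PTGS2 gave -1.29 (-2.42 to -0.17) and -1.40 (-2.59 to -0.21). For these 3 genes the mean lowering was larger in the presence of MS275, the drug that had raised them. Replicate 1 of PTGS2 did not show this at 1 nM. There the signal went from 3.81 to 2.48 without MS275 and from 4.13 to 2.80 with it. All 3 genes had low signals with rapamycin alone, and whether this limited their lowering without MS275 was not tested. Among the genes higher with rapamycin, DENND2C gave -1.53 (-2.47 to -0.58) and -1.45 (-2.45 to -0.44), and COMMD6 -1.37 (-2.20 to -0.54) and -0.91 (-1.79 to -0.02), so their rapamycin increase was smaller with MS275. Over 25 other settings DENND2C gave -1.75 to -0.85 and -1.67 to -1.01. SH3YL1 gave -0.80 (-1.45 to -0.15) at 1 nM but -0.16 (-0.85 to 0.52) at 10 nM. Over 25 other settings SH3YL1 gave -0.92 to -0.26 at 1 nM and -0.36 to 0.04 at 10 nM. Intervals of RASGRP3 (-1.27 to 0.47 and -1.54 to 0.30) and COQ8A (-0.25 to 0.50 and -0.23 to 0.58) held 0 at both doses. INHBE gave 1.13 (-0.41 to 2.66) and 1.72 (0.09 to 3.34), a smaller mean lowering with MS275, with 0 inside the 1 nM interval. These intervals do not use the replicate number, although same-numbered arrays of the groups in the 1 nM contrast deviated together. At 1 nM the INHBE value kept its sign in all 25 other settings, the replicate block among them (0.54 to 1.61). Neither dose nor dependence was tested for the 9, since both are differences of the contrasts that chose them. Over all genes limma called 0 of 19775 genes, 0%, in each of the 2 dose and 2 dependence contrasts, while 24 and 152 (dose) and 916 and 194 (dependence) had an unadjusted p under 0.05.

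Other probe sets of the same genes bear on the choice of the brightest. C3AR1 and INHBE have 1 each. Of the 3 others for EMP2, 2 followed the one used (r = 0.96 and 0.97), with MS275 changes of 2.07 and 1.99 and changes of -2.01 and -2.18 for 10 nM rapamycin on top of MS275. The remaining one did not (r = 0.24, MS275 change 0.07). The second PTGS2 probe set followed (r = 0.89), with 0.76 for MS275 and -0.98 for 10 nM added to it. The second probe sets of COMMD6, COQ8A, DENND2C, RASGRP3 and SH3YL1 were dimmer and correlated with the first at 0.41, 0.31, 0.25, 0.41 and -0.35. Their changes with 10 nM rapamycin were 0.02, 0.16, 0.43, 0.53 and -0.04, each smaller than that of the probe set used. With MS275 against control they changed by 0.27, -0.38, -0.11, 0.17 and -0.23. For DENND2C and SH3YL1 that sign was opposite to the one of the probe set used. With 1 nM and 10 nM rapamycin added to MS275, the second RASGRP3 probe set went the other way, at -0.11 and -0.22. Those of DENND2C (0.27 and -0.30) and SH3YL1 (0.11 and -0.12) did so at 10 nM only. Those of COMMD6 (0.12 and 0.11) and COQ8A (0.40 and 0.45) kept the sign.

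**Figure D4:**
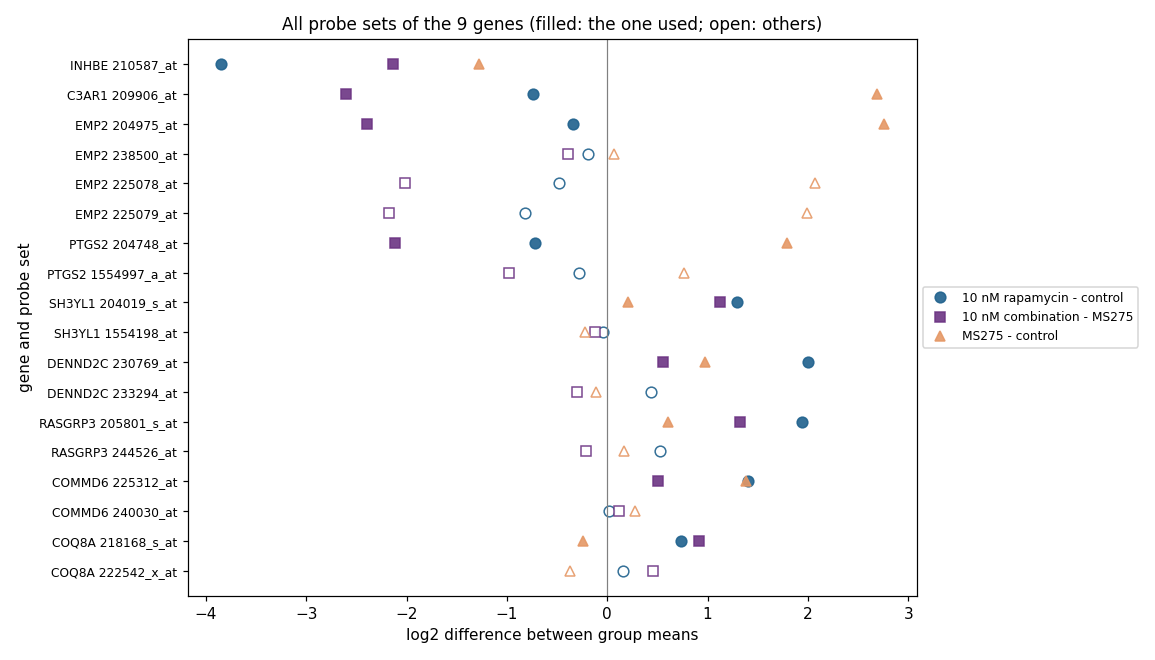
Log2 difference between group means (horizontal axis) for every probe set of the 9 genes (vertical axis), with 10 nM rapamycin against control (circles), 10 nM rapamycin added to MS275 (squares) and MS275 against control (triangles). Filled symbols are the probe sets used, and the open circles of COMMD6, COQ8A, DENND2C, RASGRP3 and SH3YL1 lie nearer 0, with 10 nM changes of -0.04 to 0.53.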

How the data were processed

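RNA of 17 samples of L363 cells was measured on Affymetrix arrays. The values are the authors' deposited log2 signals per probe set, and the submitters' processing notes name the affy package and RMA, with no version. RMA pulls low signals together, so changes of dim genes such as PTGS2 may be understated. Of 54613 probe sets, 41091 had 1 gene symbol, 1801 several and 11721 none in the platform annotation. Where a gene had several singly annotated probe sets, the brightest on average stood for it, which left 19775 genes, with no filter on low values.

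A model of 6 group means over all 17 arrays was fitted with limma 3.58.1 (lmFit and eBayes, R 4.3.3), with Benjamini-Hochberg adjustment over all genes and a threshold of 0.05 on the adjusted p, and was tested on simulated data. Standard errors and 95% intervals come from this fit. The median distance from an estimate to its interval bound was 0.54 for 3 against 3 arrays and 0.60 with the group of 2, a precision set by how few arrays there are. The members and gene lists were chosen with earlier results of these data known. From each list of related genes, those past the threshold were named, or the one with the smallest adjusted p where none passed. The 3 most alike genes of each member were those of highest Pearson r. Same-numbered arrays deviated together (every correlation over 0.1, from 0.29 to 0.85) for control with MS275, 1 nM rapamycin and the 1 nM combination, among the latter 3, and for 1 nM with 10 nM rapamycin, so a replicate block is given for those contrasts where it changes a call. It was not so for pairs of the 10 nM groups with control or MS275. With the block, limma called 413 genes higher and 249 lower with MS275 against control, and 384 and 175 with MS275 added to 1 nM rapamycin. Alternatives are in the closing section. Promoter sequences are from RefSeq (GRCh38.p14), read with Python 3.11.15.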

Additional observations from a re-analysis of the deposited data

How the results depend on the processing

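Each result was recomputed under 25 other settings (24 for PTGS2, whose mean is under the filter of 5). Of 36 rapamycin changes, 35 kept their sign in every setting, the exception being COMMD6 at 1 nM on MS275 (-0.08 to 0.33). The number of the 9 genes past the threshold moved as follows, from the values in the report. In a fit on only the groups compared it was 1 for MS275 against control and 0 for MS275 added to 1 nM rapamycin and for all 4 rapamycin contrasts. That fit has fewer samples. The cause of the other moves was not tested. With array weights it was 2 for MS275 added to 1 nM, 1 for MS275 added to 10 nM, 8 for 1 nM against control and 5 for 10 nM added to MS275. With the mean of all probe sets it was 2 for MS275 added to 1 nM, 1 at 1 nM and 3 at 10 nM against control, and 2 for 1 nM added to MS275. With trended and robust variances it was 1 at 1 nM against control and 2 for 1 nM added to MS275, and with genes of mean log2 at least 5 it was 2 for the latter. Without the 2 narrow arrays it was 2 for MS275 added to 1 nM, 2 for 1 nM added to MS275 and 5 for 10 nM added to MS275. With the replicate block it was 6 at 1 nM against control and 5 for 10 nM added to MS275, and the paired fit left the MS275 counts at 4, 1 and 0. Same-numbered arrays did not deviate together in the contrasts of 10 nM rapamycin with control and of the 10 nM combination with MS275 or 10 nM rapamycin, so the block is only a check there. Quantile normalization repeated over arrays moved no count by more than 1.5 times.

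Leaving out 1 array at a time gave 2 to 4 for MS275 against control, 1 to 2 for MS275 added to 1 nM, 0 throughout for MS275 added to 10 nM, 0 to 4 at 1 nM and 0 to 6 at 10 nM against control, 2 to 4 for 1 nM and 1 to 4 for 10 nM added to MS275. Small uncalled MS275 changes turned sign. With the mean of all probe sets SH3YL1 gave -0.0078 with MS275 alone and -0.13 on 10 nM, and RASGRP3 -0.033 on 1 nM. With quantile normalization RASGRP3 gave 0.061 and COQ8A 0.0047 on 10 nM. Over single-array omissions, MS275 on 1 nM gave -0.45 to 0.21 for INHBE, -0.0044 to 0.44 for RASGRP3 and -0.22 to 0.19 for COMMD6, and on 10 nM -0.27 to 1.15 for INHBE, -0.15 to 0.25 for SH3YL1 and -0.36 to 0.33 for RASGRP3. Among genes of the lists, the replicate block also passed others with MS275 added to 10 nM rapamycin (ACVR1C, TGFBR3, SMAD3, SMAD7 and PERP) ACVR2B with 10 nM added to MS275, and PHGDH and SESN2 at 10 nM against control, contrasts in which same-numbered arrays did not deviate together.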
